A study of Mus musculus with 24 samples.

Results

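The comparison described here sets 6 control mice of one Cre line against 6 control mice of another, across all genes. The members are the 12 Cre-negative brain libraries of a series of 24, chosen by their labels alone, 6 from the syn line and 6 from the gfap line. The study combined an altered EAAT2 gene with a neuronal driver (syn, for synapsin) or an astrocytic driver (gfap) of Cre recombinase, an enzyme that cuts out DNA between its target sites. The Cre-negative mice of both lines are labelled EAAT2+/+, and by their labels none of them carries Cre. The other 12 libraries are Cre-positive, labelled EAAT2−/− in the syn line and EAAT2Δ/+ in the gfap line, 6 mice each. No source used here gives the age, inbred background, brain region, litter or preparation batch of the mice. The line, its genetic background, the batch and the dissection coincide in these groups, so their parts in any difference below cannot be told apart.

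EAAT2, encoded by Slc1a2, is the main glutamate transporter of astrocytes and is also found on some neuronal terminals. Control animals of a conditional knockout line normally serve as the baseline for the Cre-positive animals of the same line. Bulk brain RNA mixes neurons, astrocytes, oligodendrocytes, microglia and vessels with the ciliated and secretory cells that line the ventricles. In such RNA, fewer cells of a type and less RNA per cell cannot be told apart.

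Gene-level totals were 41596313 to 57802986 counts in the syn control libraries and 46825126 to 69652824 in the gfap control libraries. Reads counted to no annotated feature made up 8.3 to 11.1% of syn control files and 4.69 to 6.37% of gfap control files. The groups did not overlap, and no source used here says where in or between genes these reads lie. Library syn Cre-negative 5 had 7.46% of reads assignable to more than 1 gene and 4.71% unaligned, against at most 3.92% and 2.21% in the other control libraries. In a principal component analysis of 13436 genes the first component held 40.4% of the variance and separated the groups without overlap, and gfap Cre-negative 4 stood apart on the third. The female-specific RNA Xist was at most 0.303 CPM (a gene's read counts relative to the scaled total of its library) in any control library. The label names the tissue as brain only. Of 12 hindbrain and serotonin neuron markers only 2 passed the filter, and these summed to 0.785 to 1.85 CPM in syn controls and 0.914 to 2.09 in gfap controls. The 16 cortical layer markers summed to 752 to 968 and 797 to 979 CPM.

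The controls of both lines differed in many genes, mostly by small amounts, and the larger differences went almost entirely 1 way. Of 19726 genes tested, 31.2% were called, 14.6% higher and 16.6% lower in syn controls (edgeR quasi-likelihood test, Benjamini-Hochberg adjusted p under 0.05 over all genes). The split was 2884 higher and 3277 lower, and with upper-quartile scaling it was 3219 higher and 2288 lower. More genes were also higher than lower in a fit of the 12 controls alone (2569 and 1727) and with a minimum of 1 CPM in 6 libraries (2683 and 2163). So it was without gfap Cre-negative 3 (2518 and 2360), 4 (2730 and 2696) or 5 (2704 and 2565). The same held with RLE scaling (3061 and 2734), DESeq2 (3253 and 2943), a length and GC offset (3444 and 2672) and a test against 1.2-fold (917 and 68). It also held without libraries above 1000 CPM of Ttr (2097 and 1550) or syn controls whose titles start with 50 (1755 and 1259). More were lower in the remaining settings, such as limma-voom (2634 and 3028). Of the 6161 called genes, 4510 differed by less than 1.5-fold. The median log2 fold change was 0.63 among those higher and −0.23 among those lower, against −0.02 over all genes tested. At 2-fold or more, 876 genes (4.44%) were higher and 25 (0.127%) lower in syn controls, and 22 of those 25 were under 1 CPM in both groups, as were 524 of the 876. Both groups of 6 libraries did not overlap in 2163 genes (11% of those tested), 1092 higher and 1071 lower.

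**Figure D1:**
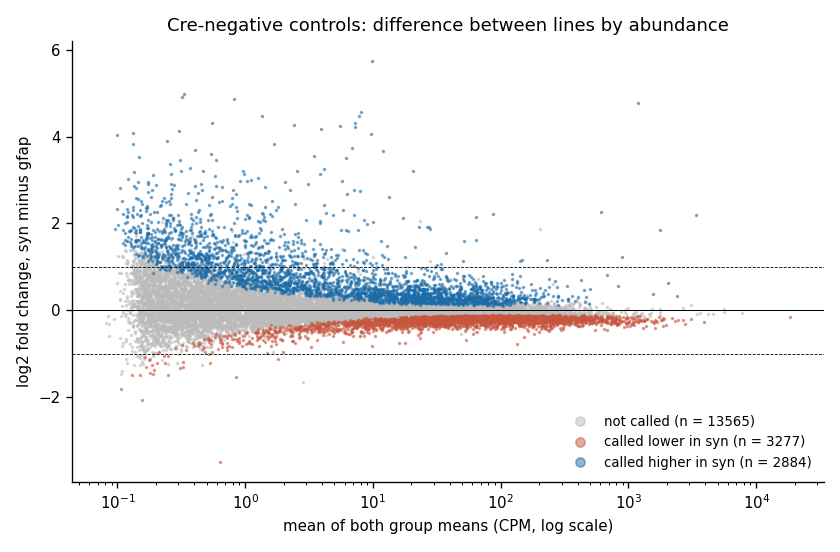
Each point is 1 of the 19726 genes tested, with its mean level in CPM on a log axis and its log2 fold change between syn and gfap control libraries (6 each); dashed lines mark 2-fold. Called genes that were higher in syn controls (blue, 2884) reach large fold changes at low and middle levels, and those that were lower (red, 3277) lie in a narrow band that is densest among abundant genes.

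Level and direction went together. In the fifth of genes with the lowest level the median log2 fold change was 0.26, with 15.8% called higher and 1.32% lower. In the fifth with the highest level it was −0.12, with 8.37% higher and 42.1% lower. Across 5 equal bins of exonic length or of GC content the median stayed between −0.05 and 0.02.

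The genes with the most certain 2-fold differences belong to varied families. Muc3a, a membrane mucin gene (ENSMUSG00000094840, GRCm38 chromosome 5, 137208813 to 137212389), had a lowest, median and highest level of 7.92, 9.52 and 12.5 CPM in syn controls. In gfap controls these were 1.85, 2.7 and 3.21 CPM. Every syn control stood above every gfap control, by 3.62-fold on average (log2 fold change 1.86, SE 0.15, edgeR adjusted p = 1.1e-08). Mbd6, which encodes a protein with a methyl-CpG binding domain, ran 43.6, 46.2 and 48.2 CPM in syn controls and 17.7, 21.4 and 28 in gfap controls (log2 fold change 1.07, SE 0.09, edgeR adjusted p = 1.6e-08). Dmpk, the kinase gene whose repeat expands in myotonic dystrophy, ran 14, 17.2 and 18.8 CPM against 6.23, 6.98 and 7.78 (2.41-fold). These groups too were fully separate. Shkbp1 (log2 fold change 1.08), the collagen genes Col5a3 (1.42) and Col20a1 (1.22), the cardiac myosin gene Myh6 (1.42) and the complement gene C4a (1.31) were also higher with no overlap. C4a has a near-identical copy, C4b, so its share of the reads is uncertain.

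Among separated genes of at least 1 CPM in the higher group, the largest fold changes came mostly from low-level transcripts. Six3os1, transcribed opposite to the forebrain and eye regulator Six3, had 320 counts in all in syn controls and 16 in gfap controls (log2 fold change 4.32, SE 1.01, edgeR adjusted p = 0.00299). Strand was not stated for the counting, so reads of Six3os1 and of an overlapping gene on the other strand cannot be told apart. Crocc2, related to the ciliary rootlet gene, had 596 counts against 81 (log2 fold change 3.00, SE 0.38, edgeR adjusted p = 6.5e-06). Ttll6, an enzyme that adds glutamate chains to the tubulin of cilia, had 348 against 53 (2.85). Igfn1, a gene best known from muscle, ran from 1.32 to 16.2 CPM in syn controls and from 0.26 to 1.21 in gfap controls (3.15).

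In the other direction 1 gene met the same limits. Bub1b, the mitotic checkpoint kinase BubR1 (ENSMUSG00000040084, chromosome 2, 118598211 to 118641591), had 2 to 8 counts in each syn control, or 0.0367 to 0.153 CPM. In gfap controls 1 to 6 it stood at 1.92, 0.258, 1.21, 0.158, 1.93 and 1.52 CPM. Thus 4 gfap controls were above 1 CPM and 2 close to the syn range (log2 fold change −3.49, SE 0.52, edgeR adjusted p = 3.9e-05). In the Cre-positive libraries Bub1b was again lower in the syn line, with 26 counts in all against 311.

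Several classes of transcripts without a protein product were called higher in syn controls at a larger share than coding genes, and other such classes at a smaller one. Of 641 TEC genes, an annotation class for transcribed loci that await experimental proof, 38.8% were called higher and 1.56% lower. Their summed level was 1014 to 1089 CPM in syn controls and 670 to 896 in gfap controls, with no overlap. Of 811 antisense genes 24.7% were higher and 3.08% lower, and of 70 sense-intronic transcripts 37.1% were higher and 1.43% lower. Of 15289 protein-coding genes 13.4% were higher and 19.8% lower, and of 825 lincRNAs 15.6% and 4.36%. Of 1169 processed pseudogenes 5.13% were higher and 12.4% lower, and of 96 bidirectional-promoter transcripts 3.12% and 6.25%. The share of reads counted to no feature moved the same way, as given above, and its part in these counts was not tested.

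**Figure D2:**
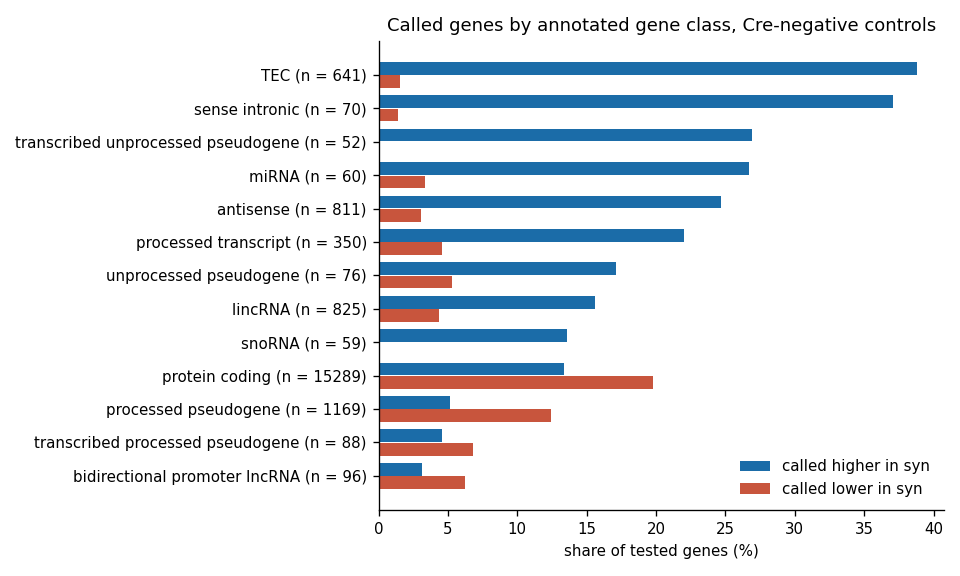
Bars show the share of tested genes of each annotated class that was called higher (blue) or lower (red) in syn than in gfap control libraries. TEC and sense-intronic transcripts have the highest shares called higher, 38.8% and 37.1%, and among the larger classes protein-coding genes and processed pseudogenes have more called lower than higher.

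Long noncoding RNAs that stay in the nucleus were higher in syn controls. Of 12 listed, 9 were called higher and 1 lower, against 14.6% and 16.6% of all genes, with a median log2 fold change of 0.68. Neat1, the scaffold of paraspeckles (ENSMUSG00000092274, chromosome 19, 5824708 to 5845478), ran 179, 193 and 249 CPM (lowest, median, highest) in syn controls and 68.3, 93.3 and 106 in gfap controls. The groups did not overlap, and the log2 fold change was 1.16 (SE 0.12, edgeR adjusted p = 1.1e-06). Malat1, an abundant RNA of nuclear speckles, ran 1066, 1256 and 1451 CPM against 271, 574 and 693 (log2 fold change 1.22, SE 0.22, edgeR adjusted p = 0.000434). Kcnq1ot1, an imprinted RNA transcribed opposite to Kcnq1, ran 16.7, 19.2 and 21.3 CPM against 3.94, 6.51 and 11.6. Snhg14, which carries clusters of small nucleolar RNAs, and Miat, a neuronal nuclear RNA, differed by 1.57-fold and 1.63-fold, again with no overlap. The list summed to 4759 to 5224 CPM in syn controls and to 2081 to 3625 in gfap controls. The exception was the imprinted RNA Peg13, lower at −0.19. In the Cre-positive libraries 9 members were again higher and 1 lower, with a median of 0.61.

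Genes of ependymal cells, the multiciliated cells that line the ventricles, were higher in syn controls by 2-fold or more in most cases. Their motile cilia need the transcription factor Foxj1, dynein motors and other axoneme proteins, and many such genes are known targets of RFX factors, which bind a DNA element called the X-box. The listed ependymal genes moved together, so the 250 bases before the start of 4 of them are shown, from RefSeq (GRCm38.p6, strand of the gene). Capitals mark GTTGCC, the letters of 1 arm of an X-box.
Dynlrb2, dynein light chain, chr8:116504765-116505014, plus strand: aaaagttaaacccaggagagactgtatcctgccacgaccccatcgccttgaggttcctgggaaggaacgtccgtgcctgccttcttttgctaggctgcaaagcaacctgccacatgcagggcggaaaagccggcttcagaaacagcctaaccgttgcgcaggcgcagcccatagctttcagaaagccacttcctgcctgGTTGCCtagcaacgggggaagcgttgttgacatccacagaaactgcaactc
Ccdc153, a coiled-coil protein of cilia, chr9:44240427-44240676, plus strand: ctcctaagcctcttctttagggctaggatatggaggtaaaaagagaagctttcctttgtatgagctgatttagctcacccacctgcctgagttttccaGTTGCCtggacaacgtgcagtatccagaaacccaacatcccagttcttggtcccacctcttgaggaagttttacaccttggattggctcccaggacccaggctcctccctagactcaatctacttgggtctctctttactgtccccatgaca
Sntn, the cilium tip protein sentan, chr14:13670626-13670875, plus strand: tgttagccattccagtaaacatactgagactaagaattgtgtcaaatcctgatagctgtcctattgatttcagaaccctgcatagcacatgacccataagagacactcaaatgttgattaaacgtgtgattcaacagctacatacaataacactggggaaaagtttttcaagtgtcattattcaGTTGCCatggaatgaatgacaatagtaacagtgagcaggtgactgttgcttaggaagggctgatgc
Tmem212, a membrane protein gene, chr3:27896369-27896618, minus strand: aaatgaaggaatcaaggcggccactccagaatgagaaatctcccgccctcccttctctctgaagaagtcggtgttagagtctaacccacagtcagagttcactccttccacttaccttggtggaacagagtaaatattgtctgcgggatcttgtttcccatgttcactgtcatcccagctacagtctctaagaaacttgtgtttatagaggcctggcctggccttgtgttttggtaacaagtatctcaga
Both strands were searched. Of the 11 members tested, 8 had a promoter in the RefSeq table, and 4 of these 8 (Dynlrb2, Ccdc153, Sntn and Hydin) held GTTGCC, against 10.5% of all 27025 promoters cut to the same window. Its first base lay 51 bases before the start in Dynlrb2, 66 in Sntn and 152 in Ccdc153, and Tmem212 has none in this window. The pattern GTNNCCNNGGNNAC, with both arms at a single fixed spacing, was in 0 of the 8 and in 1.55% of all promoters. Other spacings and arm letters were not searched, so X-boxes of another form are not counted here. These letters are a description and were chosen with the members known.

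Foxj1 (ENSMUSG00000034227, chromosome 11, 116330704 to 116335399) stood at 10, 15.7, 17.3, 12.6, 6.95 and 10.4 CPM in syn controls 1 to 6. In gfap controls 1 to 6 it stood at 3.53, 3.89, 6.33, 5.24, 5.4 and 3.55 CPM. The lowest syn control was above the highest gfap control, and the log2 fold change was 1.38 (SE 0.24, edgeR adjusted p = 0.000208). Dynlrb2 ran 1.29, 1.37 and 2.81 CPM (lowest, median, highest) against 0.175, 0.29 and 0.749, a 4.6-fold difference. Dnah11, a dynein heavy chain of motile cilia, ran 1.48, 2.17 and 5.11 CPM against 0.195, 0.535 and 1.1 (log2 fold change 2.31). Hydin, a central-pair protein, ran 2.3, 3.26 and 4.11 CPM against 0.682, 1.06 and 1.97 (1.44). Of the 11 members tested, 10 were called higher and 8 showed no overlap, against 14.6% and 11% of all genes. The median log2 fold change was 1.49, from 0.25 for Spag6l, which was not called, to 2.31. Cfap65, a sperm and cilium protein outside the list, ran 8.33, 10.9 and 17.7 CPM against 2.31, 3.37 and 4.56 (1.86). In the Cre-positive libraries 10 members were called again, with a median of 1.64.

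**Figure D3:**
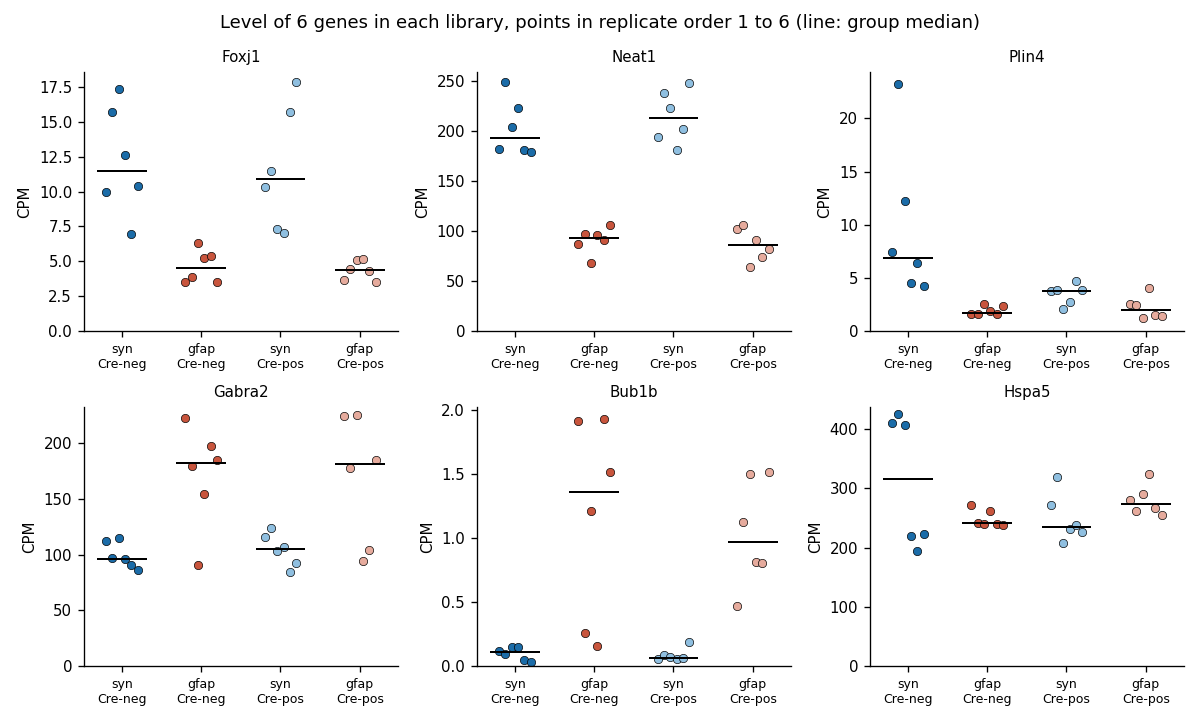
Points are single libraries in replicate order 1 to 6, in CPM on axes that start at 0, for the 4 groups of 6; the line is the group median. Foxj1 and Neat1 separate the lines in both Cre states, Plin4 is highest in syn Cre-negative libraries, Gabra2 and Bub1b vary within the gfap groups, and Hspa5 splits the syn Cre-negative libraries 3 and 3.

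Choroid plexus genes were high in 3 of the 12 controls, all of the syn line. The choroid plexus is the epithelium that secretes cerebrospinal fluid, and it makes transthyretin, encoded by Ttr, at very high levels. Ttr stood at 73, 97.5, 4793, 5015, 79.8 and 3702 CPM in syn controls 1 to 6 and at 27.8 to 162 CPM in gfap controls. Syn controls 3, 4 and 6 were far above all others, and the rest overlapped the gfap range. All 16 listed members were called higher, with a median log2 fold change of 3.93, and in none did the groups separate. The list summed to 325 to 7531 CPM in syn controls and to 219 to 463 in gfap controls. Without the libraries above 1000 CPM of Ttr (6 of the 24, 3 of them syn controls), 1 member was called and the median was 0.03. With limma-voom and quality weights 1 was called as well. Without the same libraries 10 ependymal genes were still called higher, with a median of 1.39.

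Mature oligodendrocytes make myelin, and their genes were moderately higher in syn controls. Of 16 listed, 12 were called higher, against 14.6% of all genes, with a median log2 fold change of 0.36. Mobp, a myelin-associated protein, ran 816, 865 and 1549 CPM in syn controls and 579, 682 and 736 in gfap controls. The groups did not overlap (log2 fold change 0.57, SE 0.13, edgeR adjusted p = 0.00289). Mal, a lipid raft protein of myelin, ran 236, 260 and 401 CPM against 164, 194 and 220 (0.54). Library syn Cre-negative 2 was the highest of all for both genes, with a list sum of 9063 CPM against 5862 to 6702 in the other syn controls and 4458 to 5713 in gfap controls. Without it 7 members were called, with a median of 0.29, and without the 3 syn controls whose titles start with 50, which include it, 5 were called. In the Cre-positive libraries all 16 were called higher, with a median of 0.59.

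**Figure D4:**
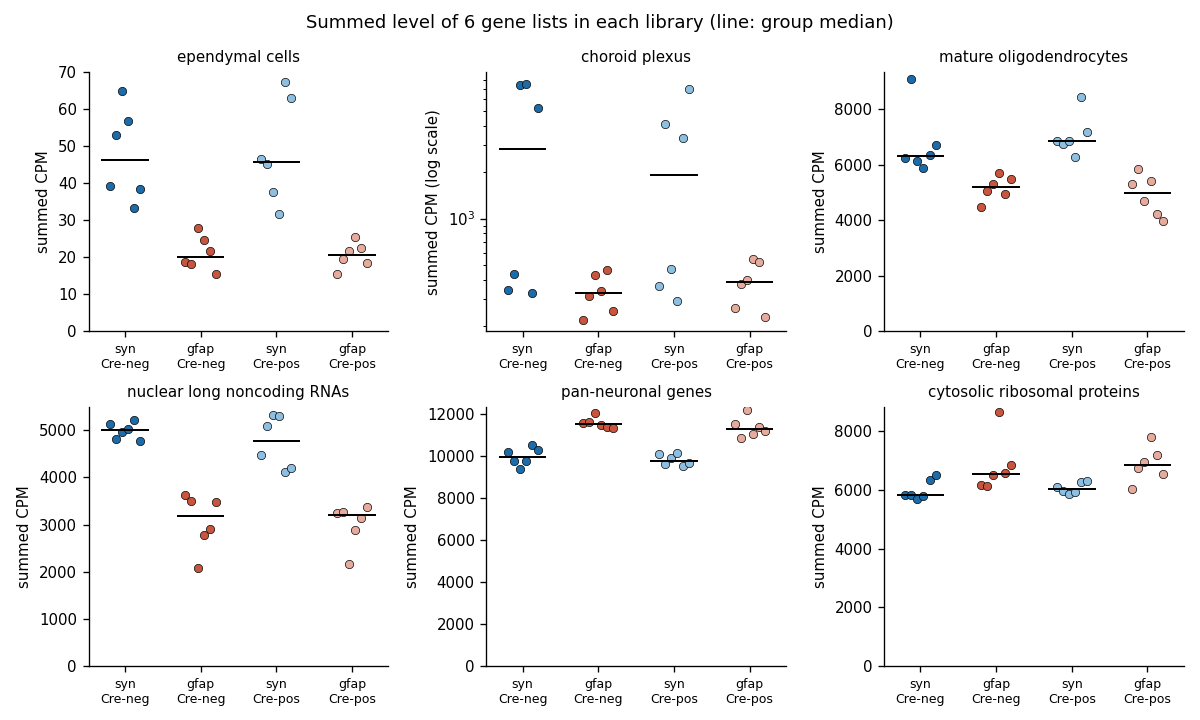
Each point is the summed CPM of a gene list in 1 library, for the 4 groups of 6, with the group median as a line; axes start at 0 except for choroid plexus, which is on a log scale. Ependymal genes and nuclear noncoding RNAs are higher in both syn groups, pan-neuronal genes are lower in both, and choroid plexus genes are high in 3 syn control libraries.

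Genes that all neurons use were slightly lower in syn controls. Of 16 pan-neuronal genes 11 were called lower, with a median log2 fold change of −0.22. Over all genes 16.6% were lower, and in the fifth with the highest level 42.1%, with a median of −0.12. Nefl, the light neurofilament chain (chromosome 14, 68083863 to 68089095), ran 333, 348 and 359 CPM (lowest, median, highest) in syn controls and 411, 433 and 469 in gfap controls. Each group was tight and they were far apart relative to that spread (log2 fold change −0.33, SE 0.04, edgeR adjusted p = 2.7e-06). Syp, a protein of synaptic vesicles, ran 665, 717 and 791 CPM against 841, 890 and 1016 (−0.32, SE 0.05), and Stmn2 (−0.31) and Thy1 (−0.26) were lower with no overlap as well. In the test against 1.2-fold Nefl, Syp, Stmn2 and Thy1 were not called. The list summed to 9370 to 10522 CPM in syn controls and to 11357 to 12072 in gfap controls. Without the libraries high in Ttr 6 members were called, with a median of −0.15, without the syn controls titled 50 there were 7, and in the Cre-positive libraries 9 were called, with a median of −0.17.

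Synaptic genes were lower in part, against 16.6% of all genes and 42.1% of the fifth with the highest level. Of 20 presynaptic vesicle genes tested 9 were called lower (median −0.16), among them Cplx2, a clamp of vesicle fusion (−0.40), and the vesicle protein gene Sv2a (−0.21). With RLE or upper-quartile scaling 1 or 2 presynaptic genes were called higher beside them. Of 12 GABA-A receptor subunit genes, which encode the main inhibitory receptor of the brain, 7 were called lower (median −0.22). Gabra5, an α subunit enriched in the hippocampus, ran 136, 156 and 182 CPM against 192, 212 and 242, with no overlap (log2 fold change −0.43, SE 0.07, edgeR adjusted p = 4.9e-05). Of 19 ionotropic glutamate receptor genes 4 were lower, a share near that of all genes, including the AMPA receptor gene Gria1 (−0.25) and its auxiliary subunit gene Cacng8 (−0.55), and 1 was higher, the NMDA receptor gene Grin2c (0.20). Without the syn controls titled 50, 4 GABA-A receptor genes and 1 glutamate receptor gene were called lower, and without the libraries high in Ttr 2 glutamate receptor genes were.

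The targeted gene itself was not called between the control groups. Slc1a2 (ENSMUSG00000005089, chromosome 2, 102658659 to 102790784) ran 3227, 3292 and 3461 CPM in syn controls and 2494, 3636 and 3980 in gfap controls. The syn controls lay within the gfap range (log2 fold change −0.08, 95% interval −0.24 to 0.08, edgeR adjusted p = 0.437). The low end of that range was 1 library, gfap Cre-negative 4, and the next lowest gfap control stood at 3430 CPM. Over 25 alternatives the log2 fold change of Slc1a2 ran from −0.15 to −0.04. Of 17 genes of glutamate uptake and recycling 7 were lower and 2 higher, against 16.6% and 14.6% of all genes. In the fifth of genes with the highest level 42.1% were lower. Slc1a1, the neuronal glutamate transporter EAAC1, ran 104, 110 and 115 CPM against 123, 132 and 139 (−0.25, SE 0.04, edgeR adjusted p = 9.2e-05), with no overlap. The glutamate-metabolising enzymes Glud1 (−0.23), Got2 (−0.22) and Got1 (−0.20) were lower by similar amounts. Without the syn controls titled 50, 1 member was called lower, and without syn Cre-negative 4 edgeR called 0 higher, with 2 at an unadjusted p under 0.05. Among 18 astrocyte genes 3 were lower and 1 higher, against 16.6% and 14.6% of all genes, or 1 lower without the syn controls titled 50, and the list summed to 7603 to 8524 CPM in syn controls and to 8105 to 8584 in gfap controls.

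Genes for protein synthesis and respiration leaned lower in syn controls, and the number called there changed with single libraries. Of 39 cytosolic ribosomal protein genes 16 were called lower (median −0.18), and of 30 nuclear genes of oxidative phosphorylation 14 (median −0.17). Over all genes 16.6% were lower, and in the fifth with the highest level 42.1%. The ribosomal list summed to 5681 to 6522 CPM in syn controls and to 6126 to 8673 in gfap controls, the highest being gfap Cre-negative 4. Without that library 4 ribosomal and 7 respiratory genes were called lower, with a median of −0.08 and −0.09. Without syn Cre-negative 2, 3 or 6 in turn, 10, 9 and 25 ribosomal genes were called, and without syn Cre-negative 3 or gfap Cre-negative 3, 8 and 9 respiratory genes. Of 13 genes on mitochondrial DNA 4 were lower, such as the cytochrome oxidase genes mt-Co2 (182, 202 and 228 CPM against 233, 242 and 290) and mt-Co3 (−0.44). Nuclear copies of mitochondrial genes can share their reads. In the Cre-positive libraries 15 ribosomal, 18 respiratory and 8 mitochondrial genes were called lower, with medians of −0.19, −0.18 and −0.24. Without the syn controls titled 50, edgeR called 0 in each of these 3 lists, with 2 in each at an unadjusted p under 0.05, and without the libraries high in Ttr it called 2, 5 and 4.

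**Figure D5:**
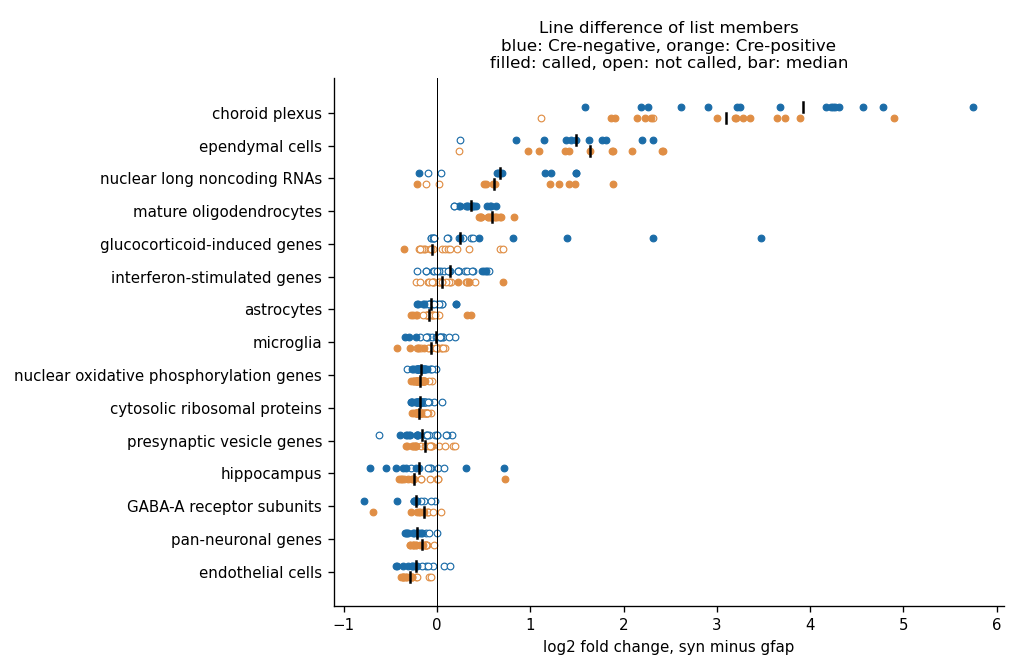
Each point is the log2 fold change (syn minus gfap) of 1 member of a list in Cre-negative libraries (blue) or in Cre-positive libraries (orange), filled where called, with bars at the medians. Choroid plexus, ependymal, nuclear noncoding and oligodendrocyte genes lie to the right in both, neuronal, ribosomal and endothelial genes slightly to the left, and 4 glucocorticoid-induced genes reach values from 0.81 to 3.47 in Cre-negative libraries.

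Region markers differed by small amounts. Of 15 hippocampal markers 7 were lower and 2 higher (median −0.19), against 16.6% and 14.6% of all genes. Neurod6, a transcription factor of pyramidal neurons, ran 169, 172 and 182 CPM in syn controls and 206, 219 and 244 in gfap controls (−0.36, SE 0.05, edgeR adjusted p = 3.4e-05). Fibcd1 (−0.55) and Tdo2 (−0.72), marker genes of hippocampal neurons, were lower with no overlap, while Zbtb20, a hippocampal transcription factor gene, ran 220, 309 and 348 CPM against 92.5, 194 and 223 (0.72). The list's sums overlapped, at 1108 to 1327 CPM against 1182 to 1444. Without syn Cre-negative 2, gfap Cre-negative 3 or gfap Cre-negative 5 in turn, 4 hippocampal genes were called lower, and 1 or 2 were higher with any control library left out. Of 16 cortical layer markers 4 were lower, against 16.6% of all genes, although 11 of the 16 had a positive log2 fold change (median 0.13). Those lower include Bcl11b (−0.39), Etv1 (−0.32) and Tle4 (−0.27) of deep-layer neurons, and Cux1 of upper layers was higher (0.25), with 0 to 3 layer markers higher when single libraries were left out. Of 9 olfactory bulb markers tested 2 were lower, against 16.6% of all genes, and 7 not called. Their log2 fold changes were positive in 4 and negative in 5 (median −0.13). Cdhr1, a photoreceptor and olfactory bulb cadherin and 1 of the 2, ran 6.04, 6.83 and 8.58 CPM against 10.5, 12.5 and 14.6 (−0.81). The olfactory bulb sums did not overlap, at 218 to 267 CPM against 276 to 305. Of 16 striatal markers 4 were lower, against 16.6% of all genes (median −0.03). The striatal sums did not overlap either, at 700 to 738 CPM against 741 to 862. Thalamic markers summed to 411 to 516 CPM in syn controls and to 390 to 479 in gfap controls.

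Vascular and immune lists differed in both directions. Of 15 endothelial genes 7 were lower, against 16.6% of all genes (median −0.23), including the VEGF receptor gene Kdr (−0.43) and the tight junction gene Cldn5, which ran 17.7, 21.9 and 29.6 CPM against 20.5, 33.7 and 36.2. The endothelial groups overlapped in every member, although the list's sums did not, at 354 to 400 CPM against 401 to 476. Without the libraries high in Ttr 1 member was called. Without syn Cre-negative 3 or gfap Cre-negative 6 in turn, or with upper-quartile scaling, 4 were called. In the Cre-positive libraries 10 endothelial genes were called lower, with a median of −0.29. Of 19 microglial genes 3 were lower, a share near the 16.6% of all genes, with the purinergic receptor gene P2ry12 (35.4, 39.6 and 42.2 CPM against 46.2, 49 and 51.5) fully separated. Of 12 genes of border macrophages, which sit at the brain's surfaces and in the choroid plexus, 3 were higher, against 14.6% of all genes. All 3 belong to the class II antigen presentation pathway. Cd74, its invariant chain, ran 1.98, 3.59 and 6.04 CPM against 0.616, 1.09 and 1.71 (1.76), with H2-Ab1 (1.86) and H2-Aa (2.03) alike. Syn controls 3 and 4, which were high in Ttr, had the highest levels of these 3 genes. Without the libraries high in Ttr, Cd74 and H2-Ab1 were still called higher and H2-Aa was not. In the Cre-positive libraries none of these 3 genes was called, at an edgeR adjusted p of 0.126 to 0.181. Without the syn controls titled 50, 1 of the 12 was called. Of 25 interferon-stimulated genes 3 were higher, a share under the 14.6% of all genes, namely the signalling genes Stat2 (26.5, 27.9 and 31.6 CPM against 18, 20.9 and 22.1) and Irf9 (0.53), and Xaf1 (0.50). This count was 6 without syn Cre-negative 1 and 5 without syn Cre-negative 5 or gfap Cre-negative 4.

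Genes that glucocorticoid hormones induce were higher in syn controls in part. Of 18 tested 6 were called higher, against 14.6% of all genes (median 0.24). Plin4, a lipid droplet protein, stood at 7.47, 23.2, 12.2, 4.56, 6.38 and 4.25 CPM in syn controls 1 to 6 and at 1.59 to 2.55 CPM in gfap controls, so the groups did not overlap (log2 fold change 2.31, SE 0.38, edgeR adjusted p = 0.000157). Hif3a, a hypoxia factor gene that the hormone also induces, ran 5.77, 8.36 and 12.6 CPM against 1.69, 3.21 and 5.27 (1.39). Lcn2, an iron-binding acute-phase protein, was at 2.16 and 3.4 CPM in syn controls 2 and 3 and at most 0.339 in the others, against at most 0.158 in gfap controls. Cdkn1a, a cell cycle inhibitor gene, was at 16.9 CPM in syn control 2 and 4.94 to 8.18 in the others, against 3.9 to 4.88. Other members were not called, such as Fkbp5 (−0.06), Tsc22d3 (0.36) and Sgk1 (0.24). In the Cre-positive libraries the list's median was −0.05, and Plin4 had 3.51 against 2.21 CPM on average (0.67, edgeR adjusted p = 0.194). The difference of these line differences was not called for Plin4, Hif3a, Lcn2 or Cdkn1a. Without the syn controls titled 50, 3 members were called.

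Of 18 circadian clock genes 3 were higher and 1 lower, which is near the 14.6% of all genes for the first and under the 16.6% for the second. Per3 ran 50.9, 58.4 and 68.5 CPM against 32.9, 38.1 and 42.9 (log2 fold change 0.64, SE 0.08, edgeR adjusted p = 6.5e-06), and Per2 ran 33.7, 38.9 and 56.8 CPM against 26.4, 28.1 and 32.2 (0.52). Neither overlapped. Per1 differed by 0.25 and the clock-output gene Tef by −0.14, and of 25 alternatives 8 ended the call of Per1 and 9 that of Tef, upper-quartile scaling among the latter. Without the libraries high in Ttr 5 were called higher. These are period genes whose RNA cycles over the day, and no source used here gives the time of dissection.

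Chaperones of the endoplasmic reticulum split the syn controls by the first number of their titles, whose meaning the sources used here do not give. Hspa5, the chaperone BiP, stood at 410, 425 and 407 CPM in syn controls 1 to 3, titled 50, and at 220, 195 and 223 CPM in syn controls 4 to 6, titled 52. Gfap controls held 238 to 272 CPM, between these values. Creld2 (14.4 to 21.5 against 8.98 to 10.2 CPM), Sdf2l1 (11.5 to 14.3 against 5.15 to 8.3) and Pdia4 (55.7 to 62.8 against 27 to 35.5) split in the same way. With all 6 syn controls, 3 of the 22 heat shock and unfolded protein response genes were called higher and 2 lower, both shares under those of all genes. Without those titled 52, 10 were higher and 1 lower, and without those titled 50, edgeR called 0 higher, with 0 at an unadjusted p under 0.05, and 5 lower. Without syn Cre-negative 1 or 2 in turn 1 was called higher, without syn Cre-negative 5 there were 5, and without the libraries high in Ttr there were 6. Lower calls numbered 1 without syn Cre-negative 4 or 6 or gfap Cre-negative 3, 4 or 5, and 4 without syn Cre-negative 3 or gfap Cre-negative 1 or 6.

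Genes whose level is known to vary between inbred mouse strains were examined because the background of neither line is given. Of 16 tested 3 were lower and 1 higher in syn controls, against 16.6% and 14.6% of all genes, and without the libraries high in Ttr 2 were lower. Gabra2, a GABA-A receptor subunit whose brain level differs among strains, stood at 86.4 to 115 CPM in syn controls. In gfap controls 1 to 6 it stood at 222, 179, 90.7, 154, 197 and 185 CPM, so gfap control 3 fell in the syn range and the other 5 above it (log2 fold change −0.78, SE 0.21, edgeR adjusted p = 0.00825). Wdfy1 was not called (edgeR adjusted p = 0.243) and also split the gfap controls, at 31.9, 35.5, 15.5, 15.2, 15.9 and 35.6 CPM, against 17.2 to 21.2 in syn controls. Gfap control 3 was thus at the low level for both genes, and gfap controls 4 and 5 for Wdfy1 but not for Gabra2. Called genes were spread over chromosomes 1 to 19 and X, from 25.4% of those tested on chromosome 18 to 37.1% on chromosome 15.

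The same contrast in the 12 Cre-positive animals, which share no library with the controls, gave 5416 called genes (27.5% of those tested). They differ by line as the controls do, and also by driver and labelled EAAT2 genotype. Of the 6161 genes called between controls, 3930 were called in the same direction, which is 63.8% of the first list and 72.6% of the second. The sign was the same for 98% of the called genes and for 81.9% of all genes. Of the 876 genes higher by 2-fold or more 562 were called higher again, and of the 25 lower 4 were called lower again. Mmp14, a membrane-bound matrix protease (−0.28 in controls, 0.32 in Cre-positive libraries), and Ednrb, an endothelin receptor (−0.19 and 0.18), were called in opposite directions and are named after their values were seen. An edgeR test of the difference between both line contrasts called 2 genes, with 691 at an unadjusted p under 0.05, and these are likewise named after their values were seen. Prm1, the sperm protamine gene, had 25 and 42 counts in all in syn and gfap controls, and 30 and 1518 in syn and gfap Cre-positive libraries. Prickle2, a planar polarity gene, averaged 305 and 323 CPM in the controls and 292 and 169 CPM in the Cre-positive groups.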

How the data were processed

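Total RNA of mouse brain was sequenced on an Illumina instrument, per the labels' protocols, which describe 6 mice in each of 4 groups. Each deposited file lists raw read counts by gene, in whole numbers, plus 5 summary lines that name no gene and entered neither library sizes nor the fit. For the authors' steps, HISAT2, HTSeq 0.6.0, DESeq2 1.6.3 and build mm10 appear, without role or order, per the submitters' processing notes. No source used here states the strand setting or the annotation release. Symbols and coordinates come from GENCODE M21 (GRCm38), which named 52489 of 52636 identifiers.

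Libraries were grouped by the labels for line and genotype. Replicate numbers follow accession order and serve as names only. Titles start with 74 in gfap controls 1 and 2, with 75 in 3 and 4 and with 76 in 5 and 6. The fit treats the libraries of a group as independent whatever their titles, and no gfap title set was left out. Genes passing filterByExpr were fitted in edgeR 4.0.16 (R 4.3.3) with TMM scaling and 1 robust quasi-likelihood model of 4 groups over 24 libraries, and syn minus gfap Cre-negative was the contrast. Called means a Benjamini-Hochberg adjusted p under 0.05. CPM (counts relative to TMM-adjusted library size) were computed here from the counts the authors deposited, and log2 fold changes come from the fit. All 30 pairs of libraries within a control group differed by more than counting noise (chi-square per gene 9.03 to 130). The fit was tested on simulated data.

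The 42 gene lists (671 genes) are described by counts of called members and medians, without a test. The members and lists were chosen with earlier results of these data known. Named were Slc1a2; per direction the 10 called genes of smallest p with at least 2-fold difference, 1 CPM in the higher group and no overlap; the 5 of largest change; and up to 4 called members of each list, with other list members as values. Genes with provisional names were counted only, some other genes that the rule selects are not reported here, and the report says where genes were named after their values were seen. Alternatives were other scalings and filters, DESeq2 1.42.0, limma-voom (limma 3.58.1), a 1.2-fold threshold test, a length and GC offset, a fit of the controls alone, and libraries left out.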

Additional observations from a re-analysis of the deposited data

Results flagged for a closer look

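In each control group of 6, the highest or lowest library was set against its nearest neighbour as a share of the group's range, against Dixon's 95% critical value. Of 228 values and groups examined 26 passed it, 12 in syn and 14 in gfap controls, and chance flags about 1 in 20 groups. Library syn Cre-negative 2 held 8 of them. It was highest for the myelin genes Mal (401 CPM), Mobp (1549), Cldn11 (221), Mbp (3524) and the oligodendrocyte gene Trf (20.4), and for the oligodendrocyte list sum (9063). It was also highest for Cdkn1a (16.9) and the glucocorticoid-induced sum (965).

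Library syn Cre-negative 5 was highest for reads counted to no feature (11.1%), ambiguous reads (7.46%) and unaligned reads (4.71%), and for Neurod6 (182 CPM). Library gfap Cre-negative 4 held 8 flags. It was highest for the ribosomal sum (8673 CPM), the oxidative phosphorylation sum (6764), Stmn2 (425), Glud1 (315), the sterol enzyme gene Sqle (85.4) and Creld2 (11.9), and lowest for Slc1a2 (2494) and the class I gene H2-T24 (2.94), whose reads may be shared with close copies. Library gfap Cre-negative 3 was highest for Tdo2 (9.49 CPM), Per1 (80.5) and Nlrc5 (1.39), and gfap Cre-negative 5, 2 and 1 stood apart for H2-Aa (1.05), Cux1 (49.2) and Xaf1 (2.85, lowest).

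The difference between lines was not the same in Cre-negative and Cre-positive libraries for Prm1 (by 5.04 on the log2 scale) and Prickle2 (by −0.88), both at an edgeR interaction adjusted p of 5.7e-05. Both cases rest on the gfap Cre-positive group, where Prm1 was higher and Prickle2 lower than in the other groups.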

How the results depend on the processing

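Of 2519 results for 101 genes, 2389 kept direction and side of the threshold, 125 lost the call, 4 gained it and 1 reversed. That gene, Hspa5, was not called with all libraries and turned from 0.33 to −0.22 without the syn controls titled 50. Leaving out 1 control library at a time gave 4878 to 6370 called genes, 2487 to 2903 higher, 2360 to 3467 lower, 814 to 1043 at 2-fold or more, and 3238 to 4041 also called between Cre-positive groups. A fit of the 12 control libraries alone called 1727 genes lower. With no filter on low counts 1404 genes passed 2-fold. With a minimum of 1 CPM in 6 libraries 2163 were lower and 382 passed 2-fold. A test against 1.2-fold left 985 genes, 917 higher and 68 lower, 541 at 2-fold and 520 also called between Cre-positive groups. Without the libraries above 1000 CPM of Ttr, chosen after seeing the data, 3647 genes were called, 1550 of them lower, and 1475 were shared with the Cre-positive contrast. Without the syn controls titled 50, also chosen after seeing the data, 3014 were called, 1755 higher and 1259 lower, 2312 of them shared. Leaving out the syn controls titled 52, as many libraries, left 5262 called, 2408 higher and 2854 lower, 3229 of them shared. The settings without the libraries high in Ttr or without a titled set use fewer libraries. The cause of these and the other shifts was not tested. The share of called genes that were higher was 46.8%, 58.5% with upper-quartile and 52.8% with RLE scaling. No paired analysis was possible because the labels give the groups no shared replicate numbers. Genes near 1 count per library, such as Six3os1 in gfap controls, have folds set by few reads.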
